A study of Homo sapiens with 2 samples.

Results

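The expressed long intergenic noncoding RNAs of HL60-EIF2S3 cells are described here. HL60 is an established human acute myeloid leukemia line of promyelocytic type, and the stable HL60-EIF2S3 cells carry an EIF2S3 transgene under a Retro-X Tet-Off Advanced vector, in which doxycycline (DOX) shuts the transgene down. The library labelled DOX(-) came from untreated cells, in which the transgene is meant to be on, and the library labelled DOX(+) from cells treated with DOX, in which it is meant to be off. Both groups carry the transgene, each is 1 RNA-seq library, and whether the cells are 1 clone or a pool, the DOX dose and the time of treatment are not given in the sources used here. A long intergenic noncoding RNA (lincRNA) gene was taken as a member where the deposited table typed it lincRNA and listed it at 1 FPKM or more in either library. FPKM divides a gene's fragments by its transcript length and by the library total. Members were thus chosen by their FPKM in these same libraries, so their levels and ratios are given as a description. Symbols of other gene groups (SNHG genes, GAS5, DANCR, CYTOR, PVT1, CASC11 and PCAT1) were left out, which removed 8 of the 198 lincRNA rows past that level. The rule left 190 members of 58302 genes in the table, and 11525 genes of every type reached 1 FPKM.

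LincRNA genes lie between protein-coding genes and are transcribed by RNA polymerase II. Most of their transcripts are capped, spliced and polyadenylated like messenger RNA but carry no long conserved reading frame, and most are made at lower levels than messenger RNAs. A few have known roles, among them scaffolding of nuclear bodies (NEAT1), binding of RNA-binding proteins in the cytoplasm (NORAD) and hosting of microRNA hairpins (MIR155HG). Many others start next to a protein-coding gene and run away from it on the opposite strand, which is called a divergent pair.

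The libraries held 16577644 fragments in DOX(-) and 18521267 in DOX(+), recovered from the steps between low FPKM values, so 1 FPKM on a transcript of 1 kb was 16.6 and 18.5 fragments. With 1 library per condition no difference has a replicate check, no p-value is given, and every ratio compares these libraries only. Differences are DOX(-) over DOX(+), on the scale log2(FPKM + 1), which understates those of low genes. The 95% intervals of ratios are exact conditional counting intervals on fragments of the shortest annotated transcript and cover counting error only. EIF2S3 itself had 132.9 FPKM where DOX(-) is the label and 126.2 FPKM where it is DOX(+), with a ratio interval of 0.927 to 1.20 that includes 1, so these values do not separate the libraries in the direction of their labels. Below, DOX(-) and DOX(+) name the libraries by these labels. Of 8 promyelocyte markers, 6 were at 1 FPKM or more in both libraries, with ELANE at 396.4 and 299.4 FPKM, while MPO, a defining enzyme of promyelocytes, was at 0.274 and 0.469 FPKM. Of 13 markers of other cell types, PECAM1 alone reached 1 FPKM (10.8 and 11.8 FPKM).

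Members were low and short of fragments. In bulk RNA, fewer cells making a transcript and less of it per cell cannot be told apart. The median of a member's higher value was 1.78 FPKM, 109 members stayed under 2 FPKM and 9 reached 10 FPKM. At 1 FPKM or more, 128 members were present in both libraries, 29 only in DOX(-) and 33 only in DOX(+); members past the level in 1 library only were bound to differ. The members summed to 530.3 FPKM in DOX(-) and 525.2 FPKM in DOX(+), which was 0.188% and 0.183% of all FPKM. Of the FPKM outside the mitochondrial genome they were 0.243% and 0.253%, which turns the order of the libraries. Only 1379 of the 7346 lincRNA rows left after the symbol step were above 0 in either library. All 190 members were found in GENCODE 29, typed lincRNA there, and 181 had the same locus. Of them 127 have 1 annotated transcript, and in these the median was 26 fragments in DOX(-) and 30 in DOX(+), with 61 members under 50 fragments over both libraries.

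The members' structure was read from their annotation, and length and reading frame were not compared with those of other genes. The longest annotated transcript had a median length of 1207 nt and ranged from 173 to 22743 nt, and 70 members had only single-exon transcripts. The longest open reading frame had a median of 71 codons, and 45 members held one of 100 codons or more, the longest being 252 codons in C22orf34, an older open reading frame name now annotated as lincRNA. Median GC content was 49.3% in members and 48.1% in tested protein-coding genes. Members lay on 23 chromosomes, with 17 on chromosome 19, 17 on chromosome 2 and 16 on chromosome 1. Exons of another gene overlapped those of 54 members, 18 of them on the same strand. Whether the libraries kept strand is not given in the sources used here, so reads of such members and of the genes they overlap may not be told apart.

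The values next to the threshold of 1 FPKM, given as DOX(-) then DOX(+), show how thin it is. Just inside it lay AP000943.2 at 1.01 and 0.848 FPKM. AP005432.2 was at 0.618 and 1.01 FPKM. AC104653.2 was at 1.02 and 0.389 FPKM, and AC005393.1 at 0.207 and 1.02 FPKM. Each of these members passed in 1 library only. Just outside it lay C2orf48 at 0.989 and 0.598 FPKM. LINC02081 was at 0.642 and 0.977 FPKM. AC245595.1 was at 0.545 and 0.975 FPKM, and AC007228.1 at 0.954 and 0.732 FPKM.

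NORAD, a cytoplasmic RNA that binds Pumilio proteins and is needed for genome stability, was the most abundant member. It was at 59.4 FPKM in DOX(-) beside 57.1 FPKM in DOX(+), from 5253 and 5651 fragments. This was 11.2% and 10.9% of the members' FPKM and rank 573 and 572 among all tested genes. The log2 ratio was 0.05, so that the libraries hardly differed in it. The counting interval of the ratio, 1.00008 to 1.08, began just above 1, so NORAD is among the members counted below as higher by interval. NORAD is a single exon at chr20:36045622-36050960 (GRCh38, minus strand). Its transcript sequence of 5339 nt in GENCODE 29 held 15 matches of TGTANATA, the core of the Pumilio recognition element, searched on the transcript strand. Of these 10 read TGTATATA, 4 TGTAAATA and 1 TGTACATA. Below, 5 of the 15 are printed 5′ to 3′ with flanking bases, the match in capitals, with each of these forms among them. The capitals are alike because the search required it, and likeness of the copies beyond the match was not tested.
NORAD site 1, chr20:36050185-36050208: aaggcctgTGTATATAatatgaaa
NORAD site 3, chr20:36049705-36049728: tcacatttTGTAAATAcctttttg
NORAD site 5, chr20:36049495-36049518: gtatatagTGTACATAaaggacag
NORAD site 11, chr20:36047974-36047997: ccctactgTGTATATAgcggacaa
NORAD site 13, chr20:36047662-36047685: gtatatagTGTATATAagcggaca
These matches begin at transcript bases 761, 1241, 1451, 2972 and 3284. In their longest transcripts the other 189 members held 42 matches in 22 genes (11.6% of them), or 0.122 per kb against 2.81 per kb in NORAD. NEAT1 held 6, AL021368.2 held 5 and JPX held 4. A match is only a description of the letters. Genes of NORAD-binding proteins were then read from the same table. PUM2, a Pumilio protein, was at 17.9975 FPKM in DOX(-) beside 19.1 FPKM in DOX(+). RBMX, a nuclear RNA-binding protein, was at 18.5 and 19.4 FPKM. The counting intervals of both included 1.

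Most of the other abundant members were slightly higher in DOX(-). LINC01667 had 27.4 FPKM in DOX(-) beside 24.5 FPKM in DOX(+). LINC00926, a lincRNA described in B cells, was at 25.1 and 23.1 FPKM. AP001505.1 was at 13.3 and 11.0 FPKM. These 3 had intervals that included 1, but that of LINC01667 began just above 1 on its longest transcript (1.00 to 1.25). LINC02470 was at 11.4 and 9.27 FPKM. AC026401.3, which overlaps NDE1, was at 8.00194 and 7.84 FPKM. LINC01257 was at 7.59 and 6.91 FPKM. The intervals of these 3 included 1 too. LINC01388, beside FOXD4 on chromosome 9, stood out from them at 11.6 and 7.92 FPKM, from 80 and 61 fragments (interval 1.04 to 2.08).

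Among the 12 members of highest mean level, 3 were lower in DOX(-). AC079466.1 (chr19:28606688-28615229, plus strand) was at 9.33 FPKM in DOX(-) beside 14.97 FPKM in DOX(+). Its 689 and 1235 fragments gave an interval of 0.567 to 0.685, and its nearest coding gene, UQCRFS1, lies 590092 bases away. AC091057.3 was at 7.92 and 11.9 FPKM, from 104 and 175 fragments (0.516 to 0.851). AC026150.1 was at 6.02 and 10.7 FPKM, from 70 and 139 fragments (0.416 to 0.755). The last of these lie 70988 bases apart on chromosome 15 beside GOLGA8 genes, a family of near-identical copies, so reads may be shared with copies and both values are uncertain. Together the 12 members held 36.7% and 36.6% of the members' FPKM. Over the 190 members, which share the libraries and their depth, log2(FPKM + 1) in the libraries had a Pearson correlation of 0.885 and a Spearman correlation of 0.733 (0.864 and 0.729 without NORAD).

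**Figure D1:**
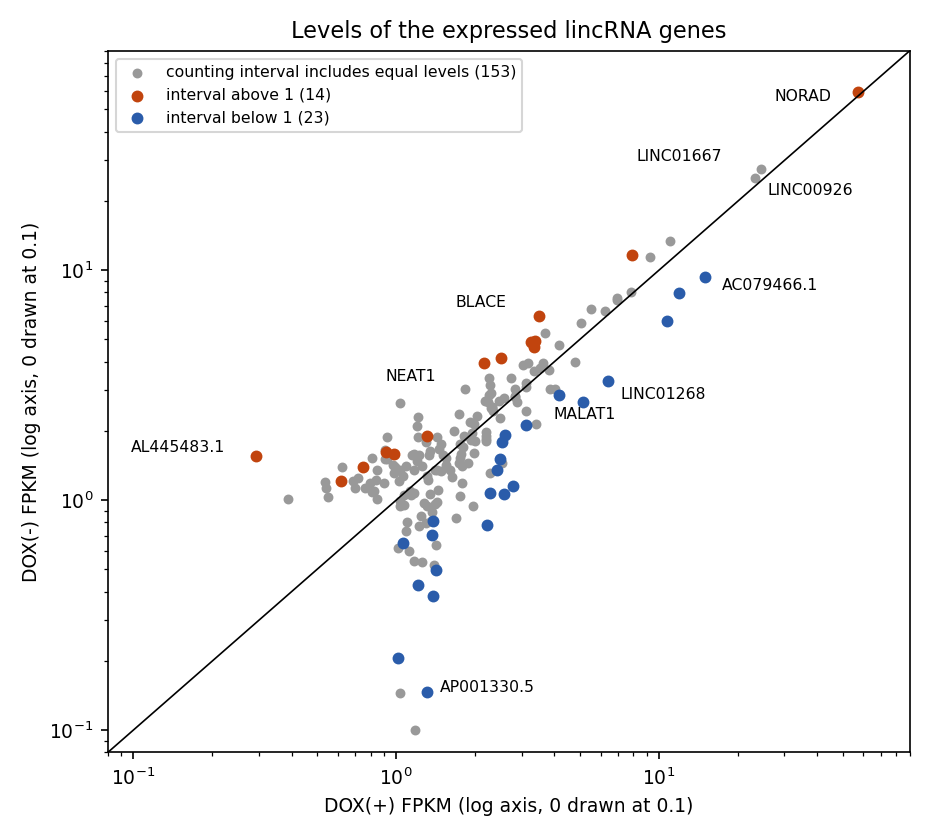
FPKM of the 190 members in DOX(+) (x axis) and DOX(-) (y axis), both on log axes with a listed 0 drawn at 0.1. Each point is 1 lincRNA gene, the line marks equal levels, and color marks members whose 95% counting interval of the ratio lies above 1 (14), below 1 (23) or includes it (153); NORAD stands at 59.4 against 57.1 FPKM, and points under 2 FPKM scatter widely around the line.

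By the 2-fold rule, none of the 190 members was higher in DOX(-) and 2 were lower, beside 0.833% of all tested genes higher and 1.2% lower (2.03% in either direction). With 1 library per group these counts have no test. AC092919.1 had no fragment in DOX(-), where the table lists 0, and 5 fragments (1.18 FPKM) in DOX(+). Set against the floor of 3 fragments in the DOX(-) library, 0.790 FPKM, its DOX(+) value was 1.49-fold higher. The counting interval of its ratio included 1, so the values do not set a least difference. AP001330.5 had 1 fragment in DOX(-) (0.147 FPKM) and 10 in DOX(+) (1.31 FPKM), with a ratio interval of 0.00257 to 0.785. Both calls rest on few fragments.

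At 1.5-fold, 5 members were higher (2.63%) and 17 lower (8.95%) in DOX(-), beside 3.11% and 4.06% of all tested genes (7.17% in either direction). The 5 were AL445483.1, AC125603.1, BLACE and CH17-340M24.3, given below, and AL645608.6 at 1.89 FPKM in DOX(-) beside 0.923 FPKM in DOX(+). Members with 1 annotated transcript gave 4 higher and 17 lower of 127 (3.15% and 13.4%), beside 6.11% and 8.51% of the 2422 tested genes with 1 transcript. Counting intervals without 1 were found for 37 members (19.5%), 14 higher and 23 lower in DOX(-), beside 16.1% of all tested genes (7.59% higher, 8.51% lower). Among 1-transcript members the share was 27.6% (35 of 127), beside 30.6% of the tested genes with 1 transcript. These sets are alike in transcript number but not in level. Median FPKM in DOX(-) and DOX(+) was 1.45 and 1.43 in the 1-transcript members, beside 3.60 and 3.69 in the tested genes with 1 transcript. On fragments of the longest transcript the counts were 19 higher and 25 lower, 44 in all (23.2%), beside 18.1% of all tested genes higher, 23.4% lower and 41.5% in either direction.

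**Figure D2:**
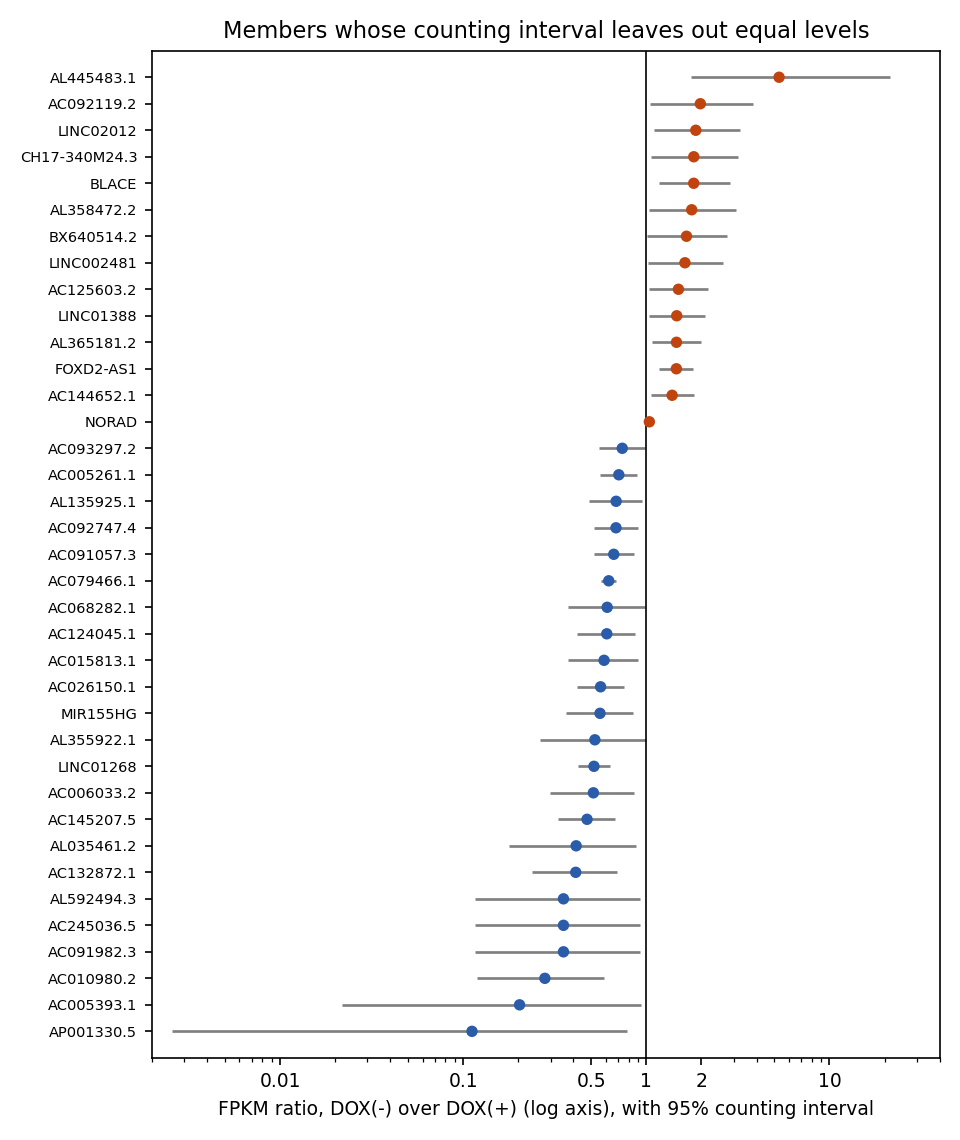
FPKM ratio, DOX(-) over DOX(+), on a log axis for the 37 members whose 95% counting interval leaves out 1, ordered by ratio. Points are ratios and bars are exact conditional counting intervals; 14 members lie above 1 and 23 below, AC079466.1 and LINC01268 have short bars, and AP001330.5 spans 0.00257 to 0.785.

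Over the members the median log2 ratio was 0.04, with 100 above and 90 below 0 (quartiles -0.27 and 0.26, range -1.12 to 0.98). Over all tested genes it was -0.02, with 46.6% above 0, over protein-coding genes -0.02 and over antisense genes 0.03. In 1-transcript members the median was -0.03 (60 above, 67 below) and in the 63 members with 2 or more transcripts 0.10 (40 above, 23 below). Quartiles of tested protein-coding genes were closer together, at -0.18 and 0.13, while those of tested 1-transcript genes were -0.27 and 0.21. The log2 ratio had a Pearson correlation of 0.224 with GC content over the 190 members and 0.235 over tested protein-coding genes (Spearman 0.216 and 0.324), and of 0.07 with transcript length. These points share both libraries, and whether base composition plays a part was not tested.

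**Figure D3:**
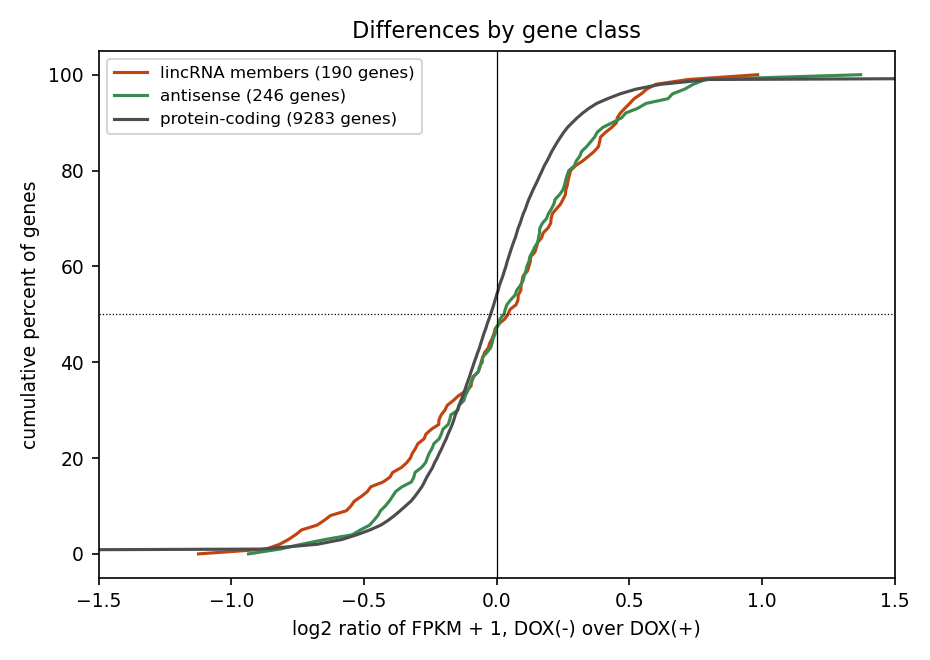
Cumulative percent of genes (y axis) by log2 ratio of FPKM + 1, DOX(-) over DOX(+) (x axis), for members and other classes of tested genes. The curves cross 50% close to 0, at 0.04 for members and -0.02 for protein-coding genes, and the member curve is wider, with quartiles of -0.27 and 0.26.

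Among members at 2 FPKM or more, the 10 furthest below equal levels in DOX(-) by log2 ratio included the 3 abundant genes above. AL592494.3 was at 0.780 FPKM in DOX(-) beside 2.21 FPKM in DOX(+), from 6 and 19 fragments. AL035461.2 was at 1.15 and 2.78 FPKM, and AC132872.1 at 1.06 and 2.58 FPKM. LINC01268 (chr6:113868013-113873351, minus strand) was at 3.31 and 6.39 FPKM, from 151 and 326 fragments. Its interval of 0.424 to 0.630 lies well below 1. MARCKS, which encodes a membrane-linked actin regulator, lies 4542 bases away and was at 10.9 and 12.97 FPKM. AL355922.1 was at 2.68 and 5.13 FPKM, from 15 and 32 fragments, with an interval up to 0.995. AC145207.5 was at 1.08 and 2.27 FPKM, from 48 and 113 fragments (0.331 to 0.671). The tenth such member, MIR155HG, is described with the microRNA hosts.

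The 10 members furthest above equal levels in DOX(-), again among those at 2 FPKM or more, included LINC01388, above, and NEAT1, below. AC125603.1 was at 2.64 FPKM in DOX(-) beside 1.03 FPKM in DOX(+), from 16 and 7 fragments, and its interval just included 1 (0.994 to 7.34). BLACE, named for its expression in B cell acute lymphoblastic leukemia, was at 6.34 and 3.50 FPKM, with an interval of 1.17 to 2.86. CH17-340M24.3 was at 3.93 and 2.17 FPKM, and BX640514.2 at 4.15 and 2.51 FPKM. The intervals of both began just above 1. FOXD2-AS1, divergent from the forkhead factor gene FOXD2, was at 4.93 and 3.38 FPKM from 205 and 157 fragments (1.18 to 1.81). AC125603.2, 270 bases from AC125603.1, was at 4.89 and 3.27 FPKM. AL359397.2 was at 2.30 and 1.21 FPKM and AC021224.1 at 2.11 and 1.20 FPKM, and the intervals of both included 1. Outside that rule, and chosen after its values were seen, AL445483.1 had the highest ratio, at 1.56 and 0.293 FPKM from 19 and 4 fragments (1.76 to 21.4). It overlaps DDX59, an RNA helicase gene on the opposite strand, which was at 2.85 and 1.82 FPKM.

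The lincRNAs of nuclear bodies stood on opposite sides. NEAT1 (chr11:65422774-65445540, plus strand), the scaffold of paraspeckles, was at 3.04 FPKM in DOX(-) beside 1.82 FPKM in DOX(+). MALAT1, an RNA of nuclear speckles whose end is cut by RNase P and protected by a triple helix, was at 2.15 and 3.42 FPKM. On the shortest transcripts both intervals included 1 (0.893 to 3.36 for NEAT1, 0.180 to 2.42 for MALAT1), and on the longest neither did (1.52 to 1.83 and 0.547 to 0.726), so the interval depends on the transcript length used. MALAT1 is annotated with 17 transcripts of 132 to 8708 nt and its locus in the table differs from that in GENCODE 29. NEAT1 and MALAT1 lie 52147 bases apart on chromosome 11. By level, MALAT1 was member 63 in DOX(-) and 28 in DOX(+), and NEAT1 member 39 and 82. Whether RNA without a poly(A) tail was kept in the libraries is not given in the sources used here.

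Genes of proteins that make or bind these RNAs were mostly at 1 FPKM or more, and protein was not measured. All 15 genes of paraspeckle proteins were tested, with 5 above and 10 below 0 and a median log2 ratio of -0.09. SFPQ, a core paraspeckle protein, had 47.2 FPKM in DOX(-) beside 72.7 FPKM in DOX(+). RBM14 was at 8.46 and 13.1 FPKM. RBM12 was at 1.49 and 0.613 FPKM. Of the 15, 5 had a counting interval without 1 (33.3%, beside 16.1% of all tested genes), DAZAP1 higher and CPSF6, HNRNPK, RBM14 and SFPQ lower. Lists and all tested genes were not matched in level, and such intervals were fewer among low genes. They were found for 4.53% of tested protein-coding genes with a higher value of 1 to 3 FPKM, beside 14.8% of all tested protein-coding genes. Among 22 genes of the nuclear exosome and its adaptors, which degrade unstable noncoding RNA, 3 had such an interval, each lower (NCBP2, MPHOSPH6 and EXOSC6; 13.6%), and the median was -0.09. NCBP2, a cap-binding subunit, was at 1.87 and 3.71 FPKM. MPHOSPH6 was at 7.14 and 11.5 FPKM, and PABPN1, the nuclear poly(A)-binding protein, at 7.69 and 10.2 FPKM. Among 12 genes of RNase P, RNase Z and triple-helix ends the median was -0.08, the intervals of RPP25 and POP4 lay below 1 (16.7%), and none lay above it. POP4, an RNase P subunit, was at 2.94 and 5.47 FPKM. METTL16, which binds the MALAT1 triple helix, was at 1.958 and 2.77 FPKM, and POP1 at 7.07 and 9.10 FPKM. Integrator subunits, which cleave nascent noncoding transcripts, had a median of -0.06 over 14 genes, and 1 of them, INTS5, had an interval below 1 (7.14%).

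MicroRNA host genes gave 3 tested members of 14 listed. MIR155HG (chr21:25561909-25575168, plus strand), the primary transcript of miR-155, had 36 fragments in DOX(-) (1.36 FPKM) and 72 in DOX(+) (2.43 FPKM). It was lower in DOX(-), with a ratio of 0.559 and an interval of 0.364 to 0.845. MIR222HG was at 0.808 and 1.10 FPKM and MIR4435-2HG at 2.70 and 2.47 FPKM, and the intervals of both included 1. Of the 6 mature microRNAs of these hosts found in the RefSeq sequences used here, which this assay did not measure, 4 are printed 5′ to 3′ (GRCh38.p14) with the seed, bases 2 to 8, in capitals, to set the arms of miR-155 beside the pair that shares a seed.
hsa-miR-155-5p: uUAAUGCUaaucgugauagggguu
hsa-miR-155-3p: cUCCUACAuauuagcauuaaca
hsa-miR-221-3p: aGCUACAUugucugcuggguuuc
hsa-miR-222-3p: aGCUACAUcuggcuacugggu
miR-221-3p and miR-222-3p share the seed GCUACAU, while those of miR-155 differ from it and from each other. The other two, miR-222-5p and miR-4435, share a seed with none of these or with each other. The hairpin rows of the table were near 0: MIR155 was at 0.928 and 0.831 FPKM, MIR221 at 0.548 and 0.982 FPKM and MIR222 at 0.548 and 0 FPKM. Each value above 0 came from about 1 fragment, except that of MIR221 in DOX(+), from about 2. MIR612 in NEAT1 was at 0.603 and 0.540 FPKM, and MIR4435-2, MIR3667 and MIR3686 were listed at 0 in both. Among 13 microRNA processing genes the median log2 ratio was -0.15 and 2 had an interval without 1 (15.4%, close to the 16.1% of all tested genes), RAN higher and AGO1 lower. Lists of partner genes here and above were read by interval counts, and those outside the 3 largest differences of each list were named after their values were seen. DICER1, which cuts the hairpins, was at 2.08 and 3.54 FPKM. TNRC6C, an Argonaute partner, was at 0.662 and 1.33 FPKM, and RAN, needed for export of the hairpins, at 48.1 and 36.5 FPKM.

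The RefSeq promoter of MIR155HG (250 bases before to 50 after its RefSeq start at base 25562145, plus strand; the GENCODE 29 start lies upstream of that) is printed because the counting interval of this host lay below 1. Capitals mark the matches of TATAAA and TGANTCA, the AP-1 type motif, found by a search of both strands.
MIR155HG promoter, chr21:25561895-25562194: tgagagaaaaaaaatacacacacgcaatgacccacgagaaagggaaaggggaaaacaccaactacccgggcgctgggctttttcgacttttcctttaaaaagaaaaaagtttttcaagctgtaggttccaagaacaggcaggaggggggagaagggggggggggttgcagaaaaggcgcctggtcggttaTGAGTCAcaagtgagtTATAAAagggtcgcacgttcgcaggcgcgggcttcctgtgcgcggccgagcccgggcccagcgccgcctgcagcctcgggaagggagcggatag
Over 35116 RefSeq promoters, 11.5% held TATAAA and 7.71% held TGANTCA. The members matched by symbol were 42 of 190, with 49 promoter rows, of which 8.16% and 14.3% held them. The RefSeq promoters were not chosen by level, as the members were. No factor was measured at these sites.

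Other role lists held few members. Myeloid and immune lincRNAs gave 5 of 13: LINC00926 and MIR155HG, above, MIR4435-2HG, CCDC26, described in myeloid leukemia, at 1.57 FPKM in DOX(-) beside 1.22 FPKM in DOX(+), and LINC00528 at 1.68 and 1.45 FPKM. Of these, MIR155HG had an interval without 1, and on the longest transcript CCDC26 did too (1.13 to 1.46). JPX, an activator gene in the X inactivation centre, was at 1.33 and 1.48 FPKM. EPB41L4A-AS1 was at 1.88 and 1.43 FPKM. LINC00467, later found to encode a small protein, was at 1.09 and 0.822 FPKM. Their intervals included 1. C22orf34 was at 1.90 and 1.82 FPKM. None of the 5 p53 and DNA damage lincRNAs and none of the 5 imprinted lincRNAs that could be used reached 1 FPKM, with 4 of each list at 0 in both libraries.

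The members were then grouped by their position beside a protein-coding gene. A divergent member starts within 2 kb of the start of a protein-coding gene on the other strand (44 members). Another 15 lie within 5 kb downstream of a coding gene on the same strand, 27 of the rest overlap one, and 104 lie elsewhere. The classes were taken in this order, so divergent and downstream members may overlap a coding gene too, as AL359397.2 overlaps ATP5S. The median log2 ratio was 0.14 in divergent members, 30 of 44 being above 0, and 0.01, 0.03 and -0.02 in the downstream, overlapping and other members (8, 14 and 48 above 0). GC content was 50.3%, 49.9%, 48.4% and 47.5% in the same order, and its part was not tested. With 1 library per group the difference between these sets has no test.

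Members and their coding partners shared a direction in 76 of the 141 pairs with a tested partner, 17 of 38 for divergent pairs, 9 of 13 for downstream, 12 of 22 for overlapping and 38 of 68 for other pairs. The Pearson correlation of the log2 ratios was 0.04 over all pairs and 0.31 over overlapping pairs, while the Spearman correlation was -0.004 and 0.085. All pairs share libraries, and overlapping genes may share reads. The 38 tested divergent partners had a median log2 ratio of -0.10 and their members 0.14. INSIG1, a sterol sensor gene, had 61.6 FPKM in DOX(-) beside 45.2 FPKM in DOX(+), and its divergent lincRNA AC144652.1, 235 bases away, was at 4.64 and 3.36 FPKM. JTB was at 14.3 and 18.6 FPKM, but AL358472.2, 55 bases away, at 1.62 and 0.914 FPKM. ATP6AP1, a proton pump subunit gene, was at 11.9 and 11.6 FPKM beside CH17-340M24.3, 153 bases away. These 3 pairs thus show a shared, an opposite and an almost level partner. MED21, a Mediator subunit gene, was at 4.70 and 9.51 FPKM and AC092747.4, which overlaps it, at 2.85 and 4.18 FPKM. S100P was at 29.4 and 17.4 FPKM and LINC002481, 2550 bases away, at 1.59 and 0.978 FPKM.

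**Figure D4:**
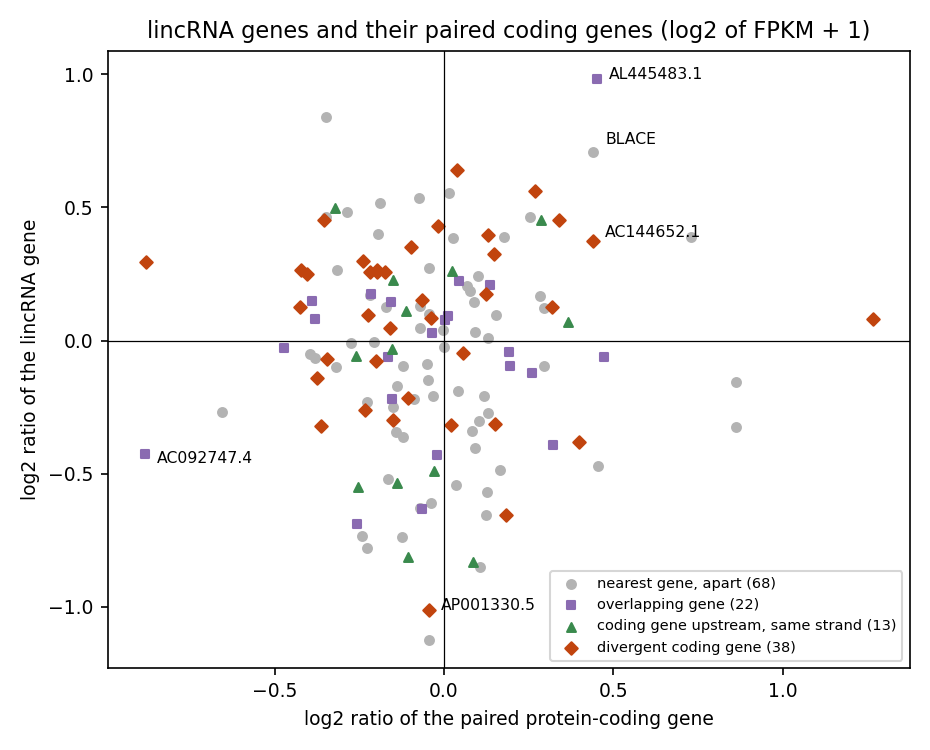
Log2 ratio of each lincRNA gene (y axis) against that of its paired protein-coding gene (x axis), both of FPKM + 1 and DOX(-) over DOX(+), for the 141 pairs tested. Each point is 1 pair and its shape marks the arrangement; 38 divergent pairs lie on both sides of each axis, with 17 of the same sign.

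Promoter windows of 2 divergent pairs, from RefSeq on GRCh38.p14, are printed because both genes of each pair begin inside their 300 bases. JTB is on the minus strand and ATP6AP1 on the plus strand. Each sequence is on the strand of the coding gene, and capitals mark the first bases of the lincRNA transcript, read on the opposite strand, 182 bases for AL358472.2 and 53 for CH17-340M24.3.
JTB promoter, chr1:153977625-153977924: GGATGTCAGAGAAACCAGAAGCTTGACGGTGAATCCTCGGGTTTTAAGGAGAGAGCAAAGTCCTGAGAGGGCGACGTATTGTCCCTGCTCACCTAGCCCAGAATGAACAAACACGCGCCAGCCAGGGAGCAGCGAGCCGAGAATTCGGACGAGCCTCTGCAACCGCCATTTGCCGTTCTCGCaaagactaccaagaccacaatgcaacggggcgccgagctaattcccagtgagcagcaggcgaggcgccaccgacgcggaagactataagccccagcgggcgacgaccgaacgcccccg
ATP6AP1 promoter, chrX:154428427-154428726: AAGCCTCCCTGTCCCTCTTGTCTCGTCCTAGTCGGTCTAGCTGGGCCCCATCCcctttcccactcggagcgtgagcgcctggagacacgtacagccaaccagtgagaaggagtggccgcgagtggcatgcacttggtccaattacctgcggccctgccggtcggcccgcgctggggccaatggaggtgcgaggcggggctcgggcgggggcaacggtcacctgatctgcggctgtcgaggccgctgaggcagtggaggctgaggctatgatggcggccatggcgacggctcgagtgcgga
In the first pair the coding gene was lower and its member higher in DOX(-), while ATP6AP1 was almost level and its member higher. Promoters of members matched by symbol (49 promoter rows) had a median observed over expected CpG ratio of 0.788, and all RefSeq promoters 0.579. Members were chosen by level and the RefSeq promoters were not, so the sets are unlike.

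Neighbouring members were also compared. Of 14 pairs of consecutive members within 100 kb, 10 had the same direction, 6 both higher and 4 both lower in DOX(-). The share over pairs of other genes was not computed. Pairs with 0 bases between them may share reads. LINC00662 with AC006504.5 and MIR4435-2HG with AC017002.3 had the same direction. AL645608.6 with AL645608.2 and LINC00526 with LINC00667 had opposite directions. The pair beside GOLGA8 genes, both lower, is uncertain as stated above. AC144652.1 and BLACE, 59443 bases apart, were both higher, and FO393415.2 and LINC01268, 30644 bases apart, both lower. NEAT1 and MALAT1 went in opposite directions. Whether neighbours share 1 transcript was not tested.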

How the data were processed

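RNA-seq of 2 libraries, DOX(-) and DOX(+), 1 each, was used. The authors deposited 1 FPKM value per gene and library, as the file headers show. HISAT2 2.1.0, StringTie 1.3.4b, CASAVA 1.8 and edgeR, with GRCh38 (hg38), appear in the submitters' processing notes; their roles and the annotation release are not given in the sources used here. GENCODE 29 gave transcripts and loci (58039 of 58302 identifiers found, 56610 with the same locus).

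Values were compared as log2(FPKM + 1) for genes at 1 FPKM or more, with a 2-fold rule and no p-value, since the design had no replicates. Fragments were recovered from FPKM of 1-transcript genes: 99.98% and 99.97% of values up to 100 fragments were whole within 0.02. Intervals are Clopper-Pearson at 95%, for counting error only. Python 3.11.15, pandas 2.3.3, SciPy 1.17.1 and matplotlib 3.10.9 were used. The interval, the median log2 ratio and the direction of differences were tried on simulated fragments of the longest transcript, with counting error only. The size rule was not tried there.

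The members and lists were chosen with earlier results of these data known. Named genes were members in role lists, the 12 highest, the 10 largest differences in each direction at 2 FPKM or more, those at the threshold, their coding neighbours, 3 genes per protein list and microRNA hosts. The pairs, motifs, printed sequences, arrangement limits, pairs of neighbouring members and added alternatives were chosen after seeing the data. Some genes that the rule names are not reported here.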

Additional observations from a re-analysis of the deposited data

How the results depend on the processing

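No paired analysis was possible because each group has 1 library, and no replicate could be left out. Counts by the 2-fold rule depended on the pseudocount: with 0.1 FPKM, 5 members were higher and 14 lower in DOX(-), and with 0.5 FPKM 2 and 6, beside 0 and 2. Trimmed-mean scaling gave 1 higher. A mean of 1 FPKM or more, and 2 FPKM or more in either library, each gave 0 lower. The 1.5-fold rule gave 5 higher and 17 lower, and the rule with an interval without 1 gave 1 lower. Of these alternatives, only the 1.5-fold rule has a share of all tested genes, given above. The other counts are thus not read as a lean of the members. The median log2 ratio of 0.04 turned to -0.026 in 1-transcript members and to -0.014 as a mean over members; it kept its sign or was 0 under the other settings, from 0 without a filter to 0.08 at 2 FPKM or more. The share of FPKM was 0.243% in DOX(-) and 0.253% in DOX(+) outside the mitochondrial genome, which turns the order of the libraries, and 0.167% and 0.163% without NORAD. Members with an interval without 1 numbered 11 to 19 higher and 21 to 25 lower under the alternatives added, beside 14 and 23. The share of all tested genes is given above for the longest transcript and was not computed for the scalings. The 41 named members were repeated with other pseudocounts and scalings, 205 values in all. Each shift of the log2 ratio was less than the distance from the middle of the log2 counting interval to its end. With wide intervals this limit is loose and does not mean a small shift. With a pseudocount of 0.1 FPKM, AC005393.1 went from -0.741 to -1.87 and AC104653.2 from 0.536 to 1.19. AC026401.3 turned from 0.027 to -0.005 under scaling by total FPKM of nuclear protein-coding genes. A 1-transcript member had a median of 26 fragments in DOX(-) and 30 in DOX(+); how depth bears on the number of calls was not tested.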
